A study of Homo sapiens with 10 samples.

Results

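The genes of pre-mRNA splicing factors were examined in peak lists of 5 ChIP-seq libraries. The members were chosen by gene symbol alone: protein-coding genes on chromosomes 1 to 22 of the SRSF family, of SNRPA to SNRPG with their numbered forms, of the HNRNP family, of SF3A and SF3B, and of the PRPF family. This rule took 69 of 19222 coding genes, of which 12 were SR genes, 11 SNRP genes, 24 hnRNP genes, 9 SF3 genes and 13 PRPF genes. HNRNPH2 lies on the X chromosome and was outside the rule. All were made from HCT116, a human line established from a colorectal carcinoma, whose cell type the labels give as colonic endothelial, although the line is epithelial in origin. The libraries used here were made with antibodies to KAP1, Larp7, Hexim1, Cdk9 and to the N-terminal part of the large subunit of RNA polymerase II (total Pol II). No treatment, deletion or time point distinguishes these 5 libraries, and the labels give 1 library for each antibody. Not analysed here were the series' Input library and its libraries of 3 histone marks (H3K27ac, H3K4me1 and H3K4me3) and of Pol II phosphorylated on Ser5.

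Splicing removes introns from the nascent transcript, largely while Pol II is still on the gene. SR proteins bind exonic enhancers and recruit the splicing machinery, and hnRNP proteins coat the transcript and often silence nearby splice sites. SNRP genes encode the Sm ring and other proteins of the U1 and U2 particles, the SF3A and SF3B complexes hold U2 at the branch point, and the PRPF proteins act in the U4/U6.U5 particle, in the complex named after PRPF19, with U1 or at the catalytic steps. At most human genes Pol II pauses soon after initiation. Its release needs P-TEFb, whose kinase is Cdk9, and the 7SK ribonucleoprotein, in which Hexim1 and Larp7 sit, holds that kinase inactive. KAP1 (TRIM28) is a chromatin-bound co-regulator, and the design of the study concerns its place beside the 7SK particle and Pol II at human genes. The question addressed here is which of these factors were found at the splicing factor genes.

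A factor was counted at a gene when a deposited peak overlapped the annotated 5′ end with 1 kb on each side by at least 1 bp. Each value below is the authors' fold of the strongest such peak over its background, a ratio that can be ranked only within its own list. No antibody had a replicate, so no test was made and no value has a replicate error. Intervals of shares are 95% binomial intervals by the exact method of Clopper and Pearson. They reflect counting alone, and several members share a promoter or a gene. The lists held 91692 Pol II, 60660 KAP1, 182444 Larp7, 227631 Hexim1 and 118666 Cdk9 peaks on chromosomes 1 to 22. Read depth is unknown, so a missing peak means that none was listed and not that the factor was absent.

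The promoters that frame the results are printed from GRCh37, the build of the files, from 250 bases before to 50 bases after the annotated 5′ end. The first 5 belong to the member of highest KAP1 fold in each family: SRSF2 at chr17:74733366-74733665 (minus strand), SNRPB at chr20:2451450-2451749 (minus strand), HNRNPAB at chr5:177631284-177631583 (plus strand), SF3B6 at chr2:24299194-24299493 (minus strand) and PRPF19 at chr11:60674008-60674307 (minus strand). The other 2 belong to members with high Pol II folds and no KAP1 peak, SRSF3 at chr6:36561880-36562179 (plus strand) and PRPF4 at chr9:116037672-116037971 (plus strand). Capitals mark matches on either strand to 1 of the motifs described further on.
SRSF2: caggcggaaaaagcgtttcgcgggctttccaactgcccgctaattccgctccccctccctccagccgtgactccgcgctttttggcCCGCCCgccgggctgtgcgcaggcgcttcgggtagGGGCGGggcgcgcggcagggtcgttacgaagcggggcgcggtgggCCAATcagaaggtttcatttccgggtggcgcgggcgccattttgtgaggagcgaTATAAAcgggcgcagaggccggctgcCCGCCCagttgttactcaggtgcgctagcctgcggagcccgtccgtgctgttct
SNRPB: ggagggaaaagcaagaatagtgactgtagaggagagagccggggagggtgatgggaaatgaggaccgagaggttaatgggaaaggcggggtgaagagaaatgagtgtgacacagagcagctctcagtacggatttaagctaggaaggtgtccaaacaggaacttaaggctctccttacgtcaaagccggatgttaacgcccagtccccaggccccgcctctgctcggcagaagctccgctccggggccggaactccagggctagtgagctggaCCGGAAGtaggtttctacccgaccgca
HNRNPAB: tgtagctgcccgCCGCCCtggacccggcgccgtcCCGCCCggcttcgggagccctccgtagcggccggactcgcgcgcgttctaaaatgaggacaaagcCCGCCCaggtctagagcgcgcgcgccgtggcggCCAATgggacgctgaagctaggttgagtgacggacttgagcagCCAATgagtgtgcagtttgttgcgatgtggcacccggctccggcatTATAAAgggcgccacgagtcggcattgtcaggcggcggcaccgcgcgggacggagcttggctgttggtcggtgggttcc
SF3B6: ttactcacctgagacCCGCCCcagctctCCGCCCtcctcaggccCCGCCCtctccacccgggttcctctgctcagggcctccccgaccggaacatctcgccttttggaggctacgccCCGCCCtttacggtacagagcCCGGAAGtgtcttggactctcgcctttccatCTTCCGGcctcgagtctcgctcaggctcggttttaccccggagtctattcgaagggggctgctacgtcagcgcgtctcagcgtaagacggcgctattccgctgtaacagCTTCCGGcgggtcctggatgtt
PRPF19: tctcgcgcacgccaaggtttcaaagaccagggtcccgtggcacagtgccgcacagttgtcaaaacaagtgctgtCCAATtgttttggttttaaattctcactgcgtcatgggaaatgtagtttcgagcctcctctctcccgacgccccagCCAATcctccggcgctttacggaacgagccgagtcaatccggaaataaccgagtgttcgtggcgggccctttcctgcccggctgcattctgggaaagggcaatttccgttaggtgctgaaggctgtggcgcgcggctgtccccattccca
SRSF3: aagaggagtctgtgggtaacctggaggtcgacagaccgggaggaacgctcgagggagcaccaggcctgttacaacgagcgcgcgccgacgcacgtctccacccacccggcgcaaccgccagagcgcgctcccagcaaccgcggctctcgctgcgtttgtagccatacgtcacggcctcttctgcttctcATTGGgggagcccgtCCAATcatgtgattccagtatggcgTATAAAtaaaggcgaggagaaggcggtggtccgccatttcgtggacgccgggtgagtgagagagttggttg
PRPF4: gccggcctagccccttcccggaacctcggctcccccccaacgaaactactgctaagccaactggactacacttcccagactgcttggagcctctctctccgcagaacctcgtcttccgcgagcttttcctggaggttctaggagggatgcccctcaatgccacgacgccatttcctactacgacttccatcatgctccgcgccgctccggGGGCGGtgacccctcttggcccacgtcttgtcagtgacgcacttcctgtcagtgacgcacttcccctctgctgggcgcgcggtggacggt

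Pol II was listed at nearly every member, whereas KAP1 was listed at about the same share of them as of coding genes in general. Pol II peaks lay at 64 of the 69 members (92.8%, interval 83.9 to 97.6), against 71.8% of all coding genes. KAP1 peaks lay at 46 members (66.7%, interval 54.3 to 77.6), against 66.2% of all coding genes. Hexim1 was found at 63 members (91.3%, against 79.9%), Larp7 at 56 (81.2%, against 76.4%) and Cdk9 at 52 (75.4%, against 70.5%). All 5 factors were present at 42 members (60.9%, interval 48.4 to 72.4), against 61.5% of all coding genes. The share of all coding genes lay below the members' interval for Pol II and Hexim1, and within it for the others. For Hexim1 it lay within the members' interval when 2 kb were taken on each side (92.8%, interval 83.9 to 97.6, against 84.1%), at the start of any transcript (92.8%, against 85.8%) and with the 20000 strongest peaks of the list (63.8%, interval 51.3 to 75, against 55%).

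**Figure D1:**
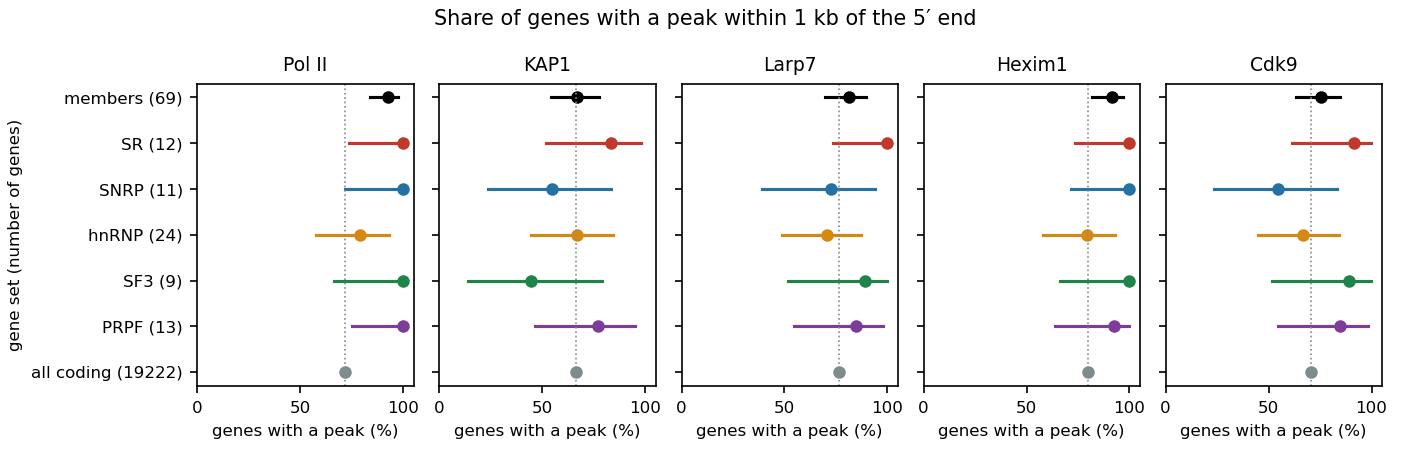
Share of genes (%) with a peak of each factor within 1 kb of the annotated 5′ end, for all 69 members, for each family and for all 19222 coding genes (dotted line); bars are exact 95% intervals. Members exceed all coding genes for Pol II (92.8% and 71.8%), while the KAP1 points lie close together (66.7% and 66.2%).

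Among genes with Pol II, KAP1, Larp7 and Cdk9 were each listed at a smaller share of the splicing factor genes than of coding genes in general. Among the 64 members with Pol II, KAP1 was present at 46 (71.9%, interval 59.2 to 82.4), against 88.1% of all coding genes with Pol II. Cdk9 was present at 81.2% of them, against 91.5%, and Larp7 at 87.5%, against 95.4%. All 5 factors were present at 65.6% of them (interval 52.7 to 77.1), against 85.6%. In each of these comparisons at the annotated 5′ end the share of all coding genes lay above the members' interval. At the canonical start this held for KAP1 (76.9%, interval 64.8 to 86.5, against 89.1%) and for all 5 factors (72.3%, interval 59.8 to 82.7, against 86.7%). It did not hold there for Larp7 (90.8%, interval 81 to 96.5, against 95.6%) or Cdk9 (84.6%, interval 73.5 to 92.4, against 92.2%).

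A stricter peak list lowered the number of members with every factor but Pol II. For Hexim1 and Larp7 it also altered how the members' share stood against that of all coding genes. With only peaks of a −log10 q of at least 5, Pol II remained at 64 members (92.8%, against 69.2% of all coding genes) while Hexim1 was at 48 (69.6%, interval 57.3 to 80.1, against 69.3%). KAP1 then stood at 22 members (31.9%, against 25.5%), Cdk9 at 15 (21.7%, against 15.5%) and all 5 factors at 11 (15.9%, against 9.59%). Larp7 stood at 25 members (36.2%, interval 25.0 to 48.7), below the 49.3% of all coding genes, whereas with all peaks its share was above theirs. The peaks of Larp7 at members also ranked low within their list, with 42 of 56 members below the median of all coding genes with Larp7.

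For 8 members the annotated 5′ end is that of an outlying transcript, more than 1 kb from the start of the canonical transcript. These are SRSF5, SRSF9, SRSF11, HNRNPH1, HNRNPL, HNRNPUL1, SF3B2 and PRPF40B, with offsets between 1635 bp (SF3B2) and 55343 bp (PRPF40B). At the canonical start, Pol II was found at 65 members (94.2%, against 74.8% of all coding genes), KAP1 at 50 (72.5%, against 69.5%) and Larp7 at 59 (85.5%, against 78.8%). Hexim1 was found there at 64 members (92.8%, against 81.9%), Cdk9 at 55 (79.7%, against 73.3%) and all 5 factors at 47 (68.1%, against 64.9%). HNRNPH1, whose protein binds runs of guanines, had none of the factors at the annotated end and all 5 at its canonical start 11113 bp away, with a Pol II fold of 64.7 and a KAP1 fold of 4.51 there.

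**Figure D2:**
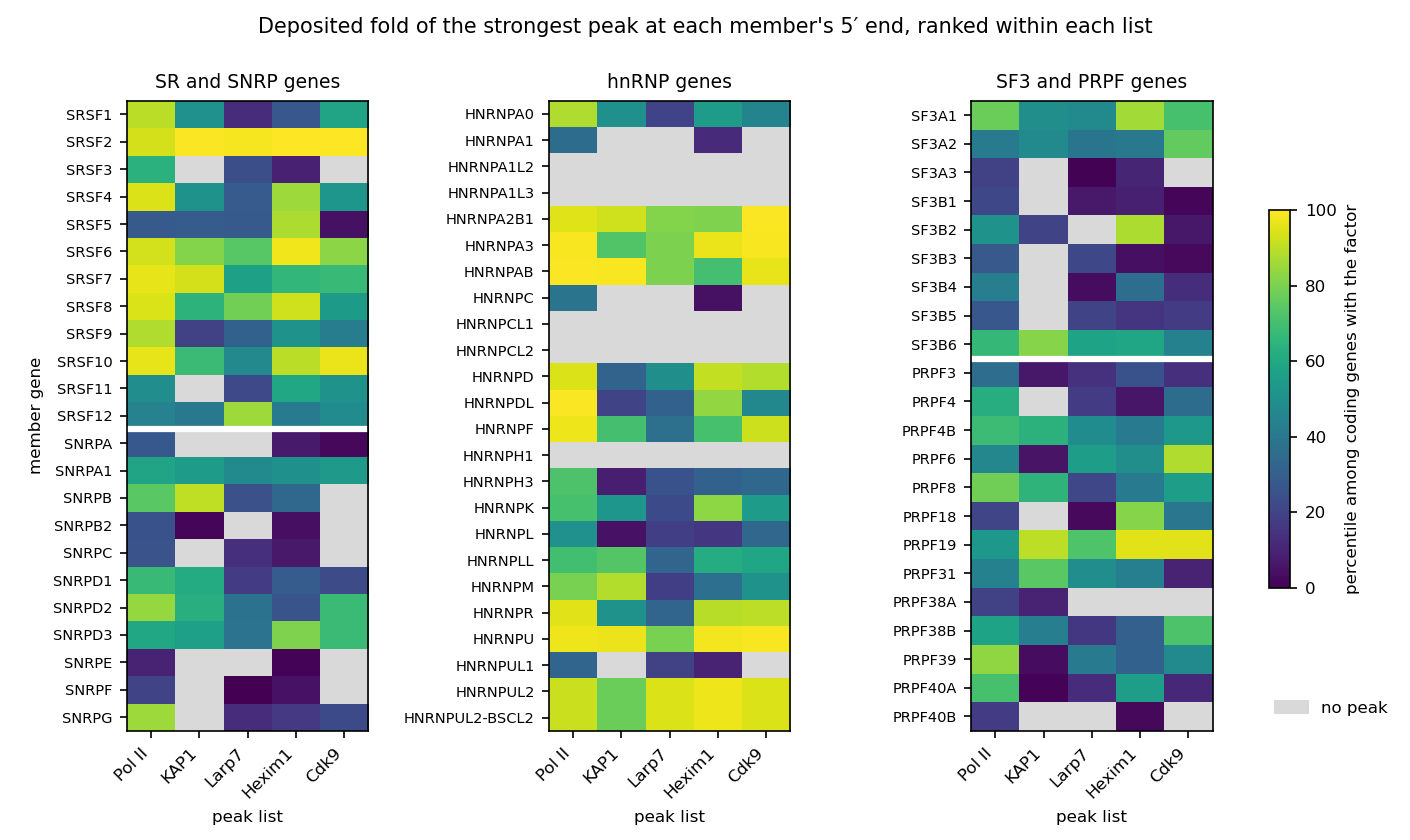
Each cell gives the percentile of a member's strongest peak at the annotated 5′ end, by deposited fold, among all coding genes with that factor; grey means no peak. Rows are members grouped by family and columns are the 5 lists. SRSF2, HNRNPAB and HNRNPU are bright in nearly all columns, while grey cells fill all columns of 4 hnRNP copies and of HNRNPH1, and appear in the KAP1 column at 5 SNRP and 5 SF3 genes.

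Among the families, the SR genes most often carried all 5 factors, at a share near that of coding genes with Pol II. All 12 had Pol II, Larp7 and Hexim1, 11 had Cdk9 and 10 had KAP1 (83.3%, interval 51.6 to 97.9). These 10 were also the SR genes with all 5 factors, against 85.6% of all coding genes with Pol II. KAP1 was at 88.1% of those coding genes. SRSF2, the SC35 protein and at the same time a neighbour of MFSD11 across a gap of 788 bp, had a Pol II fold of 108, and its KAP1 fold was 8.35, with 8.81 for Cdk9, 16.1 for Hexim1 and 7.44 for Larp7. Its KAP1 peak at chr17:74732415-74734134 stood at the 99.4 percentile of coding genes with KAP1 and was centred 141 bp past the 5′ end. SRSF7, an SR protein with a zinc knuckle, followed with a KAP1 fold of 6.66, a Pol II fold of 120 and folds of 5.03 for Cdk9, 7.97 for Hexim1 and 4.99 for Larp7. SRSF10, which can repress splicing, shared the highest Pol II fold of the family with a value of 120, and had folds of 5.32 for KAP1, 6.79 for Cdk9, 10.1 for Hexim1 and 4.76 for Larp7.

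SRSF3, the smallest SR protein, lacked KAP1 and Cdk9 and had folds of 55.5 for Pol II, 4.07 for Larp7 and 4.01 for Hexim1. Its nearest KAP1 peak lay 37.6 kb downstream of the canonical start. SRSF11 lacked only KAP1 at the annotated 5′ end, with folds of 38.7 for Pol II, 4.63 for Cdk9, 7.52 for Hexim1 and 3.99 for Larp7. At its canonical start, 15698 bp inside, a KAP1 peak of fold 4.45 was listed beside a Pol II peak of fold 66.9, so that SRSF3 was the one SR gene without KAP1 there.

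The hnRNP genes fell into well-occupied genes and genes with few or none of the factors. KAP1 and Cdk9 were each found at 16 of 24 (66.7%, interval 44.7 to 84.4), and the 16 genes with KAP1 were also those with all 5 factors. HNRNPAB, which binds AU-rich RNA and DNA, had a Pol II fold of 155 and a KAP1 fold of 7.90, with 6.60 for Cdk9, 8.24 for Hexim1 and 5.69 for Larp7. HNRNPDL, a relative of HNRNPD, had the next Pol II fold at 150, with 4.10 for KAP1, 4.52 for Cdk9, 9.41 for Hexim1 and 4.31 for Larp7. HNRNPU, the scaffold attachment factor SAF-A, had a Pol II fold of 127 and a KAP1 fold of 7.16, with 7.51 for Cdk9, 12.7 for Hexim1 and 5.69 for Larp7. HNRNPAB thus stood high in both the Pol II and the KAP1 list, while HNRNPDL stood high in the Pol II list but not in the KAP1 list.

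HNRNPA1, a splicing silencer that shares a divergent promoter with CBX5, had folds of 23.8 for Pol II and 4.35 for Hexim1 and lacked KAP1, Larp7 and Cdk9. HNRNPC, which binds uridine tracts, showed the same pattern, with folds of 27.2 for Pol II and 3.36 for Hexim1. HNRNPUL1 lacked KAP1 and Cdk9 at the annotated end, with folds of 21.4 for Pol II, 3.90 for Larp7 and 4.12 for Hexim1. It had all 5 factors at its canonical start 1876 bp away, whereas HNRNPA1 and HNRNPC lacked the same factors at both.

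The annotated copies HNRNPA1L2, HNRNPA1L3, HNRNPCL1 and HNRNPCL2 had none of the 5 factors at either start. They carry near-identical sequence of HNRNPA1 or HNRNPC, and how reads with several matches were treated is not given in the sources used here. HNRNPUL2-BSCL2, a readthrough gene, begins beside the start of HNRNPUL2 and repeats its peaks. Without these 5 genes, Pol II was listed at 63 of 64 members (98.4%) and KAP1 at 45 (70.3%), and 15 of the 19 remaining hnRNP genes had KAP1.

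SNRP genes had Pol II and Hexim1 at all 11 starts, but KAP1 and Cdk9 at 6 each (54.5%, interval 23.4 to 83.3) and Larp7 at 8. The interval of every family for KAP1 included the 66.2% of all coding genes, so these counts do not separate the families from that share. SNRPB, the SmB protein, had the highest KAP1 fold of the family at 6.37, with folds of 69.2 for Pol II, 4.09 for Larp7 and 6.08 for Hexim1, and lacked Cdk9. SNRPG, another protein of the Sm ring, had the highest Pol II fold at 87.7 and lacked KAP1, with folds of 3.92 for Cdk9, 4.86 for Hexim1 and 3.56 for Larp7. SNRPD2, of the same ring, had all 5 factors, with folds of 85.8 for Pol II, 5.16 for KAP1, 5.04 for Cdk9, 5.62 for Hexim1 and 4.49 for Larp7. Pol II folds of similar size were therefore listed with KAP1 at SNRPD2 and without it at SNRPG.

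The remaining Sm and U1 or U2 genes without a full set had low Pol II folds. SNRPE, of the Sm ring, had the lowest Pol II fold of all members at 6.08, a Hexim1 fold of 2.88, and neither KAP1, Larp7 nor Cdk9. SNRPF, also of the ring, lacked KAP1 and Cdk9 and had folds of 9.71 for Pol II, 2.51 for Larp7 and 3.40 for Hexim1. SNRPC, the U1-C protein, lacked the same factors, with folds of 13.8 for Pol II, 3.61 for Larp7 and 3.67 for Hexim1. All 3 stood at or below the 25.7 percentile of coding genes with Pol II. SNRPB2, the U2 B″ protein, lacked Larp7 and Cdk9 and had folds of 13.6 for Pol II, 3.2 for KAP1 and 3.34 for Hexim1. SNRPA, the U1-A protein, which starts 726 bp from ACTMAP, lacked KAP1 and Larp7 and had folds of 15.9 for Pol II, 3.71 for Hexim1 and 2.96 for Cdk9.

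SF3 genes had the fewest KAP1 peaks for their number, at 4 of 9 (44.4%, interval 13.7 to 78.8), although 8 of 9 had Cdk9, 8 had Larp7 and all had Pol II and Hexim1. The 4 with KAP1 were SF3A1, SF3A2, SF3B2 and SF3B6. SF3B6, the p14 protein at the branch point, had the highest KAP1 fold at 5.86, from a peak 893 bp upstream of the 5′ end, with 59.1 for Pol II, 4.46 for Cdk9, 7.51 for Hexim1 and 5.02 for Larp7. SF3A1, a U2 protein with tandem SURP motifs, had the highest Pol II fold at 73.8 and folds of 4.83 for KAP1, 5.14 for Cdk9, 9.66 for Hexim1 and 4.78 for Larp7.

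SF3B1, the branch point protein that is often mutated in blood cancers, lacked only KAP1, with folds of 10.4 for Pol II, 2.93 for Cdk9, 3.93 for Hexim1 and 3.26 for Larp7. SF3B3, which starts 262 bp from COG4, also lacked only KAP1, with folds of 15.9 for Pol II, 3.0 for Cdk9, 3.34 for Hexim1 and 3.99 for Larp7. SF3B4, which helps to hold U2 upstream of the branch point, lacked only KAP1 as well, with folds of 31.7 for Pol II, 3.59 for Cdk9, 6.22 for Hexim1 and 2.95 for Larp7. So did SF3B5, a small subunit of the complex, with folds of 15.0 for Pol II, 3.75 for Cdk9, 4.74 for Hexim1 and 3.94 for Larp7. Within SF3B, therefore, 4 of the 6 genes lacked KAP1 alone, a pattern listed at 3.5% of all coding genes. Their Pol II folds, from 10.4 to 31.7, lay below the median of 39.6 of all coding genes with Pol II. The part of the Pol II fold in this pattern was not tested. SF3A3 lacked KAP1 and Cdk9 and had folds of 9.20 for Pol II, 2.67 for Larp7 and 4.16 for Hexim1. SF3B2 lacked only Larp7 at the annotated end and had it at the canonical start, with folds of 40.9 for Pol II, 4.10 for KAP1, 3.26 for Cdk9 and 9.82 for Hexim1 at the annotated end.

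PRPF genes had Pol II at all 13, Hexim1 at 12, Larp7 and Cdk9 at 11 each and KAP1 at 10 (76.9%, interval 46.2 to 95). Their KAP1 peaks were weak within the list: the median fold of 4.19 stood at the 26.0 percentile of coding genes with KAP1. PRPF19, the ubiquitin ligase at the core of a complex that activates the spliceosome, was an exception with a KAP1 fold of 6.33, a Pol II fold of 43.6 and folds of 6.50 for Cdk9, 11.4 for Hexim1 and 5.43 for Larp7. PRPF31, of the U4/U6.U5 particle, followed with a KAP1 fold of 5.53, with 33.2 for Pol II, 3.43 for Cdk9, 6.61 for Hexim1 and 4.81 for Larp7. The highest Pol II folds were those of 2 members with all 5 factors. PRPF39, a U1-associated protein, had 84.3 for Pol II, 3.37 for KAP1, 4.54 for Cdk9, 5.92 for Hexim1 and 4.61 for Larp7. PRPF8, the central U5 protein, had 75.2 for Pol II, 5.22 for KAP1, 4.73 for Cdk9, 6.53 for Hexim1 and 3.96 for Larp7.

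PRPF4, a U4/U6 protein that starts 86 bp from CDC26, lacked only KAP1, with folds of 53.9 for Pol II, 4.25 for Cdk9, 3.61 for Hexim1 and 3.83 for Larp7. PRPF18, which acts at the second catalytic step, lacked only KAP1 as well, with folds of 9.99 for Pol II, 4.35 for Cdk9, 9.23 for Hexim1 and 2.87 for Larp7. PRPF38A, a protein of the B complex that starts 179 bp from ORC1, showed the opposite pattern. PRPF38A had folds of 9.07 for Pol II and 3.71 for KAP1 and lacked Larp7, Hexim1 and Cdk9, at the canonical start as well. PRPF40B had folds of 8.26 for Pol II and 3.08 for Hexim1 alone at the annotated end, and all 5 factors at its canonical start.

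Most members lacking KAP1 near the annotated 5′ end lacked it in the other settings of the start shown here, none of them narrower. KAP1 was missing at 23 members within 1 kb of the annotated 5′ end, at 22 within 2 kb, at 19 around the canonical start and at 18 around the start of any transcript. In all 4 settings 18 members lacked it: the 4 copies and SRSF3, SNRPC, SNRPE, SNRPF, SNRPG, HNRNPA1, HNRNPC, SF3A3, SF3B1, SF3B3, SF3B4, SF3B5, PRPF4 and PRPF18. Apart from the copies, the nearest KAP1 peak to the canonical start of these genes lay between 3.83 kb (SF3B4) and 67.6 kb (SNRPF) away. Cdk9 was missing in all 4 settings at 13 members, Larp7 at 8, Hexim1 at 5 and Pol II at the 4 copies. With 500 bp on each side, or only peaks of a −log10 q of at least 5, more members lacked KAP1. Over all coding genes KAP1 was listed at 66.2% within 1 kb of the annotated 5′ end and at 69.5% around the canonical start.

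The families differed in their Pol II folds. Among genes with Pol II, the median Pol II fold was 103 in SR genes (n = 12) and 104 in hnRNP genes (n = 19), against 39.6 in all coding genes. It was 49.4 in SNRP genes, 43.6 in PRPF genes and 29.7 in SF3 genes. The top 10% of coding genes by Pol II fold held 6 of the 12 SR genes and 10 of the 19 hnRNP genes but no SNRP, SF3 or PRPF gene. These hnRNP counts and medians include HNRNPUL2-BSCL2, which repeats the peaks of HNRNPUL2. Without it the top 10% held 9 of 18 hnRNP genes, and their median Pol II fold was 98.8. Median KAP1 folds were 5.44 in hnRNP, 5.06 in SNRP, 5.04 in SR, 4.80 in SF3 and 4.19 in PRPF genes, against 4.84 in all coding genes with KAP1. As median percentiles within each list, the families spanned 26.0 (PRPF) to 71.8 (hnRNP) for KAP1 and 41 (SF3) to 92.1 (hnRNP) for Pol II. Cdk9 folds were highest in hnRNP genes, whose median of 5.90 stood at the 89.2 percentile, and lowest in SF3 genes, whose median of 3.67 stood at the 15.2 percentile. In bulk cells a higher fold can come from more of the cells or from more protein at each gene, and these cannot be told apart.

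Members without KAP1 had lower Pol II folds than members with it. The median Pol II fold was 15.9 in the 18 members with Pol II but no KAP1 (range 6.08 to 87.7), against 74.5 in the 46 members with both (range 9.07 to 155). The ranges overlapped, mainly through SNRPG, SRSF3 and PRPF4 in the first group and PRPF38A, SNRPB2 and SRSF5 in the second. The same order held over all coding genes, where the median Pol II fold was 14.2 without KAP1, against 44.5 with it. Cdk9 was present at 9 of the 18 members without KAP1 (50.0%), against 43 of the 46 with it (93.5%), and the shares over all coding genes with Pol II were 48.3% and 97.4%.

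**Figure D3:**
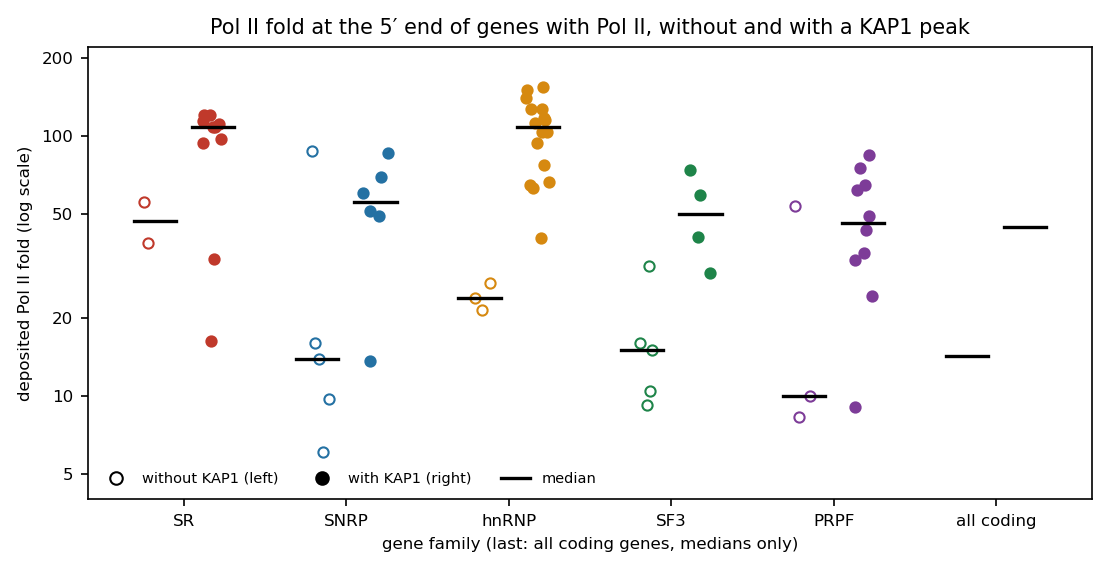
Deposited Pol II fold (log axis) of each member with Pol II at the annotated 5′ end, by family, with open points for members without a KAP1 peak and filled points for members with one; bars are medians, given alone for all coding genes. SNRPG at 87.7 is the highest open point, and the hnRNP groups without and with KAP1 do not overlap.

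At low Pol II folds, KAP1 was listed at a much smaller share of members than of other coding genes. At higher folds the members' shares were only somewhat lower. Every rank held few members (4, 13, 11, 14 and 22 from the lowest to the highest), and none of these shares has an interval. Coding genes with Pol II were divided into 5 equal ranks by Pol II fold. In the lowest rank, up to a fold of 9.30, KAP1 was present at 1 of 4 members, against 79.0% of other coding genes. In the next, from 9.36 to 28.7, it was present at 3 of 13 members (23.1%), against 78.1% of other coding genes. In the middle rank it was present at 9 of 11 members (81.8%), against 90.7%, and in the fourth at 12 of 14 (85.7%), against 95.2%. In the highest rank it was present at 21 of 22 members (95.5%), against 97.9%. The 13 members of the second rank were mostly SNRP, SF3 and PRPF genes (9 of 13). Cdk9 was present at 0 of 4 members of the lowest rank, against 83.6% of other coding genes, and at 7 of 13 of the second (53.8%), against 83.0%. It was present at all 11 members of the middle rank, against 94.5%, at 12 of 14 of the fourth (85.7%), against 98%, and at all 22 of the highest, against 99.0%. Base composition moved with these groups: the median GC content of the 300-base promoters was 58.8% in members with Pol II and no KAP1, against 63.7% in members with both, and its part in the result was not tested.

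The folds of each pair of lists were positively correlated across members, as a description over genes that share libraries and base composition. Over promoters with both factors, the Spearman correlation of Pol II and KAP1 folds was 0.48 in 45 members, against 0.34 in all coding genes. For Pol II and Larp7 folds it was 0.54 in 55 members, against 0.02 in all coding genes. Over the 10 pairs of lists it lay between 0.43 and 0.68 in members, against 0.02 to 0.55 in all coding genes. It was higher in members in each pair but KAP1 and Hexim1, at 0.43 in members, against 0.47. Genes are not independent replicates, and no p-value is given. HNRNPUL2 and its readthrough gene were counted once.

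The strongest KAP1 peak was centred past the annotated 5′ end at 33 of 46 members (71.7%), against 76.8% of all coding genes with KAP1. It was so at 22 of 26 SR and hnRNP genes (84.6%) and at 11 of 20 SNRP, SF3 and PRPF genes (55%). Over the 64 members other than the copies and the readthrough gene, Pol II peaks covered the canonical start itself in 96.9%, against 64.9% of other coding genes, while KAP1 peaks covered it in 34.4%, against 52.3%. The other coding genes were not filtered in this way, and 15.5% of them had none of the factors within 1 kb of that start. Leaving out the 4 copies, which had none there, can raise the members' shares. KAP1 coverage of members was highest 200 bp downstream, at 60.9%, against a maximum of 58.5% at 150 bp in other coding genes. Cdk9 covered the start in 59.4% of members, against 59.0%, and Larp7 in 73.4%, against 67.2%. Upstream by 1 kb, Hexim1 covered 45.3% of members, against 25.8% of other coding genes, and Pol II 25.0%, against 9.07%. A neighbouring gene starts head to head within 1 kb at 15 members (21.7%), against 10.1% of all coding genes, and the part of these neighbours in the upstream signal was not tested.

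**Figure D4:**
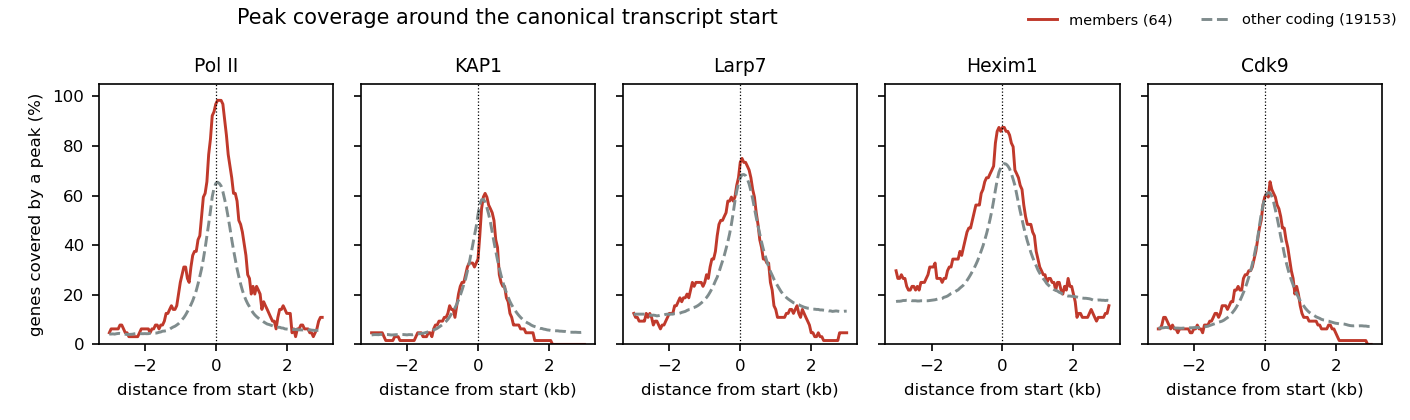
Share of genes (%) covered by a peak at each distance (kb) from the canonical transcript start, positive downstream, for 64 members (solid red) and 19153 other coding genes (dashed grey), by list. Pol II covers the start in 96.9% of members, and the KAP1 curve of members is at 34.4% at the start and reaches its maximum 200 bp downstream. The copies and the readthrough gene are left out of the members, while the other coding genes are unfiltered.

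The partners at shared starts are named because their peaks cannot be assigned to 1 gene. They are MFSD11 for SRSF2, ACTMAP for SNRPA, QPCTL for SNRPD2, GUCD1 for SNRPD3, CBX5 for HNRNPA1, CBX3 for HNRNPA2B1, ENOPH1 for HNRNPDL, PBLD for HNRNPH3 and RMI1 for HNRNPK. The others are CCDC157 for SF3A1, PLEKHJ1 for SF3A2, COG4 for SF3B3, CDC26 for PRPF4, TFPT for PRPF31 and ORC1 for PRPF38A. KAP1 was missing at 4 of these 15 starts, those of SNRPA, HNRNPA1, SF3B3 and PRPF4.

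The families also differed in the letters of their promoters. The ETS core CCGGAAG was found, on either strand of the 300 bases around the annotated 5′ end, in 8 of 11 SNRP, 6 of 9 SF3 and 5 of 13 PRPF promoters. It was found in 1 of 12 SR and 1 of 24 hnRNP promoters, and in 11.9% of all coding promoters. Around the canonical start the counts were 7, 6 and 3 for SNRP, SF3 and PRPF genes and 2 and 3 for SR and hnRNP genes, against 14.1% of all coding promoters. The SNRPB sequence printed above holds 1 such match, SF3B6 holds 3, and the SRSF2 and HNRNPAB sequences hold none.

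The CCAAT box, searched as CCAAT, was found in 16 of 24 hnRNP promoters (66.7%) and in 37 of 69 members (53.6%), against 35.5% of all coding promoters. The GC box GGGCGG was in 55.1% of members, against 52.4%, and the TATA box TATAAA in 8 members (11.6%), against 11%. Among all coding genes with Pol II, which 64 of the 69 members have, the shares were 67.6% for the GC box, 6.31% for the TATA box, 34.5% for CCAAT and 15.3% for the ETS core. SRSF2, SRSF3 and HNRNPAB hold a TATAAA match, which is in capitals in their sequences. The E-box CACGTG was in 8.70% of members, against 8.19%. Of the longer motifs searched, given by name alone, the NRF1 palindrome was in 0 members, against 1.49% of all coding promoters. The YY1 core was in 1 member, SF3A1, against 0.936%, and a palindrome around CGCG was in 1 hnRNP gene, against 0.557%.

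The share of promoters with the ETS core differed between members without and with KAP1 at the annotated 5′ end but hardly at the canonical start. At the annotated end it was in 9 of the 18 promoters of members with Pol II and no KAP1 (50.0%), against 12 of the 46 with both (26.1%). With the sequence taken around the canonical start it was in 6 of the same 18 (33.3%), against 15 of the 46 (32.6%). A match describes letters only and shows no binding of a factor.

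Pol II was listed in a larger share of member bodies, and KAP1 in a smaller share, than in the bodies of coding genes in general. For genes of 4 kb or more, the body was counted from 2 kb past the annotated 5′ end up to the 3′ end, which kept 64 members and 17083 coding genes. Pol II peaks lay in the bodies of 52 members (81.2%, interval 69.5 to 89.9), against 63.5% of all coding genes. KAP1 peaks lay in 20 (31.2%, interval 20.2 to 44.1), against 58.2%. Among genes with Pol II at the annotated 5′ end, which 62 of these members have, the Pol II gap was smaller. There Pol II was in the bodies of 82.3% of members, against 69.7%, and KAP1 in 30.6%, against 61.4%. The shares that follow are again over all of these genes. Larp7 was in 51 bodies (79.7%, against 86.5%), Hexim1 in 52 (81.2%, against 89.8%), Cdk9 in 40 (62.5%, against 77.8%) and all 5 factors in 19 (29.7%, against 50.2%).

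Members are shorter than other genes, with a median gene length of 19594 bp, against 33760 bp, and longer bodies have more room for peaks. Per 10 kb of pooled body, members had 1.70 Pol II peaks, against 0.471 in all coding genes, while KAP1 peaks were about equally dense at 0.254 and 0.269. Among genes with Pol II at the annotated 5′ end the densities were 1.81, against 0.551, for Pol II and 0.26, against 0.297, for KAP1. Over all genes with a body again, the other lists were as follows. Larp7 had 1.18 peaks per 10 kb in members, against 0.827, Hexim1 1.77, against 1.05, and Cdk9 0.705, against 0.529. In genes of 10 to 50 kb, Pol II was in the bodies of 36 of 44 members (81.8%, against 61.1% of coding genes of that length) and KAP1 in 15 (34.1%, interval 20.5 to 49.9, against 53.1%).

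**Figure D5:**
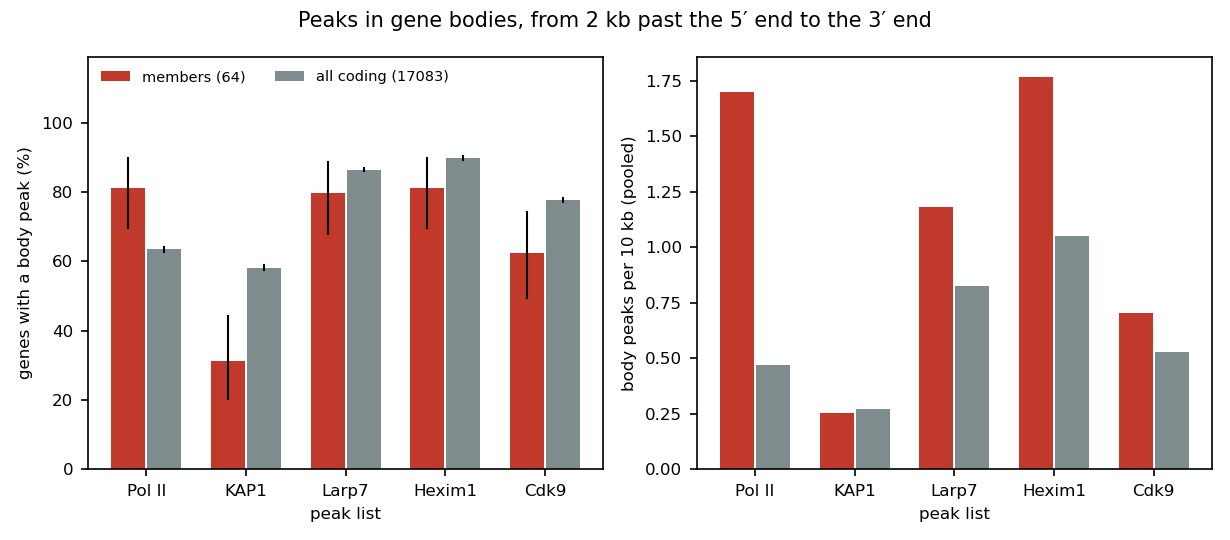
Left, share of genes (%) with a peak in the body for 64 members (red) and 17083 coding genes (grey), with exact 95% intervals; right, body peaks per 10 kb of pooled body length. Members exceed all coding genes in Pol II on both scales, and are lower in KAP1 by share (31.2% and 58.2%) with a similar density per 10 kb (0.254 and 0.269).

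HNRNPC held 33 of the 268 Pol II body peaks of members, with the strongest at a fold of 21.7, although its own start lacked KAP1, Larp7 and Cdk9. HNRNPUL2-BSCL2 followed with 15, HNRNPL, which binds CA repeats, with 14, HNRNPF, which binds guanine runs, with 13 and SF3A2 with 11. By family, Pol II body peaks numbered 2.55 per 10 kb in hnRNP, 2.01 in SNRP, 1.77 in SF3, 1.16 in SR and 0.851 in PRPF genes. Without the copies and the readthrough gene, members had 253 Pol II body peaks, and hnRNP genes 2.97 per 10 kb. Of the 268 Pol II body peaks, 83 (31.0%) had their summit within 1 kb of a transcript start of a coding gene, so part of this signal lies at internal or neighbouring starts.

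KAP1 body peaks were few and spread unevenly. Of the 40 peaks, PRPF6, a bridging protein of the U4/U6.U5 particle, and PRPF40B held 5 each, HNRNPUL1 held 4, and HNRNPF, SF3A2 and PRPF31 held 3 each. The body of PRPF40B, counted from the annotated end, takes in its own canonical start, and that of HNRNPUL1 begins close to its canonical start. SNRP genes had KAP1 in 1 of 11 bodies, that of SNRPA, and SR genes in 3 of 11, those of SRSF5, SRSF9 and SRSF11. All 4 of these SR peaks and the SNRPA peak lay within 1 kb of a transcript start, as did 18 of the 40 (45%). With such peaks left out, KAP1 remained in 11 member bodies (17.2%), against 45.6% of all coding genes.

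PRPF6 also held the most Larp7 (14) and Cdk9 (8) body peaks, and shared the highest Hexim1 count of 17 with PRPF40B. Among the longest bodies, that of HNRNPA1L3 (91697 bp) had no Pol II or KAP1 peak and 2 Hexim1 peaks, that of PRPF18 (79507 bp) had 1 Pol II, 1 KAP1 and 4 Hexim1 peaks, and that of PRPF40B (74449 bp), with its canonical start inside, had 5 Pol II, 5 KAP1 and 17 Hexim1 peaks. Of the body peaks, 17.2% for Pol II and 20.0% for KAP1 had their summit or middle in an exon of the canonical transcript, against 13.1% of the pooled body length in such exons. The shares were 13.0% for Larp7, 9.32% for Hexim1 and 8.11% for Cdk9.

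Past the 3′ end, Pol II was listed within 2 kb at 42 of 69 members (60.9%, interval 48.4 to 72.4), against 30.6% of all coding genes. KAP1 was listed there at 6 (8.70%, interval 3.26 to 18.0), against 18.1%. The share of all coding genes fell well outside the members' interval for Pol II and only just outside it for KAP1 (18.1%, upper limit 18.0). Pol II was listed at the annotated 5′ end of 64 of the 69 members but of 71.8% of all coding genes, and the genes were not matched for this. Peaks at the starts of neighbouring genes were not left out. No other setting of this zone was run.

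Other splicing genes, 109 coding genes in 5 lists, had KAP1 at 76.1%, a share within the members' interval of 54.3 to 77.6. It was above the 66.2% of all coding genes but below the 88.1% of all coding genes with Pol II. The KAP1 share among those of the 109 genes with Pol II was not computed. Pol II was at 102 of them (93.6%), Hexim1 at 103 (94.5%), Larp7 at 94 (86.2%), Cdk9 at 86 (78.9%), KAP1 at 83 and all 5 factors at 76 (69.7%). Of 32 regulators such as PTBP1, CLK and SRPK kinases and RNA-binding proteins, 28 had KAP1 at the annotated 5′ end and all 32 at the canonical start. Of 26 proteins of the PRPF19-associated, B and C complexes, 17 had KAP1 and 12 all 5 factors, and of 9 exon junction proteins 6 had KAP1. Of 28 other snRNP and LSm genes 22 had KAP1, and of 14 genes of splice site recognition 10.

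The genes of these lists without KAP1 at either start again included some with high Pol II folds, but most had low ones. Those not named next had Pol II folds at the canonical start from 5.07 (ZMAT2) to 27 (PPIH). The median of all coding genes with Pol II there was 40.7. Among them SART3 had a fold of 14.8 at the canonical start and 84.2 at the annotated 5′ end. RBM25, a regulator linked to U1, had a Pol II fold of 89.7 at its canonical start, PPIL1, a spliceosomal cyclophilin, 69.2, EFTUD2, the U5 GTPase, 59.4 and SAP18 of the exon junction 47.2. PHF5A, which sits in SF3B beside SF3B1, also had no KAP1 peak. Its Pol II fold of 40.1 was close to that median. SNRNP27 had a KAP1 peak of fold 4.13 at its canonical start and no Pol II or Cdk9 peak.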

How the data were processed

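The submitters' processing notes name Bowtie 1.1, MACS2 and the build hg19, with no version of MACS2. Control library, handling of duplicate and multiply matching reads, peak calling settings and read depth: not given in the sources used here. The fold of each peak is the authors' ratio over background, and −log10 p and −log10 q are as deposited. Pol II is in the narrow peak layout and gives summits; for the broad lists the middle of a peak was used.

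Genes came from GENCODE release 44 on GRCh37, with 1 row per coding symbol on chromosomes 1 to 22. Overlap, shares and intervals were computed with Python 3.11.15, NumPy 2.4.6, pandas 2.3.3 and SciPy 1.17.1, and the overlap step was checked on simulated peaks. Where a window held several peaks, the one of highest fold stood for the gene. No peak ran past a chromosome end of GRCh37. Motif letters were searched on both strands, and sequences came from the GRCh37 reference.

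The members, gene lists and thresholds were chosen with earlier results of these data known. Any member could be named. Full values were given for members lacking a factor at the 5′ end, for the 2 of each family with the highest KAP1 and Pol II folds, and for those with the most peaks in, or the longest, bodies. The promoters printed are those of the highest KAP1 fold in each family and of the 3 highest Pol II folds among members without KAP1, of which 1 is not reported here. The other splicing genes named lack KAP1 or Pol II; which of these were named was decided after their values were seen. Of 111 listed splicing genes 109 were found on these chromosomes. With 1 library per antibody no test and no p-value is given. The canonical start, the bodies counted from it, genes of 10 to 50 kb and the set without the copies and readthrough gene were chosen after seeing the data. Other alternatives covered stricter and shorter lists, other windows, starts, overlap rules and body limits.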

Additional observations from a re-analysis of the deposited data

How the results depend on the processing

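Of 124 alternative values over 15 settings, 94 planned and 30 chosen after seeing the data, 103 stayed within 1.5 times the reported count or median. The other 21 were counts. With only peaks of a −log10 q of at least 5, the 5′ ends of members had KAP1 at 22, Larp7 at 25, Cdk9 at 15 and all 5 factors at 11, and the bodies KAP1 at 3, Larp7 at 17, Hexim1 at 20, Cdk9 at 5 and all 5 at 2. With each list limited to its 20000 strongest peaks by −log10 p, Larp7 and all 5 factors were each at 12 of the 5′ ends. The bodies then had Pol II at 22, KAP1 at 12, Larp7 at 13, Hexim1 at 17, Cdk9 at 10 and all 5 at 4. Both settings remove peaks by construction, from all coding genes too. With the −log10 q limit, the 5′ ends of all coding genes had KAP1 at 25.5%, Larp7 at 49.3%, Cdk9 at 15.5% and all 5 factors at 9.59%. Counts given here without a share of all coding genes show how members moved and not how they differ from other genes. A body from 1 kb past the 5′ end had KAP1 at 31 members and all 5 factors at 29. With peaks near any coding transcript start left out, KAP1 was in 11 bodies and all 5 factors in 10. KAP1 at the 5′ end of members lay above all coding genes as reported, but below them with 500 bp on each side (58.0%, against 62.8%), with 2 kb (68.1%, against 69.2%), at the start of any transcript (73.9%, against 74.0%) and with overlap of at least 50% (62.3%, against 63.1%), and the cause was not tested. KAP1 in the body lay below all coding genes in each setting run. No paired analysis was possible because each antibody has 1 library and no test was made. Without read depth or replicates, a missing peak cannot be separated from one too weak to be called.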
